A study of Mus musculus with 19 samples.

Results

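The 7 mouse genes for cyclin-dependent kinase (Cdk) inhibitors were followed across cortex of embryonic day 14.5 (E14.5) embryos with or without an activated Smoothened. They are Cdkn1a, Cdkn1b and Cdkn1c of the Cip/Kip family and Cdkn2a, Cdkn2b, Cdkn2c and Cdkn2d of the Ink4 family, and they were taken by symbol from the 47643 rows of the deposited expression table, which holds all 7. Gene expression had been measured by RNA sequencing of cortex pieces, as TPM (a transcript level corrected for gene length and scaled to the same total in each library). Mutant libraries came from embryos with GFAP::Cre and SmoM2, and control libraries from wildtype embryos. SmoM2 is a mutant Smoothened that signals without Hedgehog ligand. Cre recombinase driven by the GFAP promoter restricts it to cells in which that promoter has been active and to their descendants. The labels do not say how many cells of a piece carried it. There were 4 mutant dorsal and 6 control dorsal libraries, and 4 mutant medial and 5 control medial libraries. Each piece was a dissected whole tissue, so fewer cells of a type and less RNA per cell cannot be told apart in any value below.

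Cdk inhibitors are proteins that hold back the kinases of the cell cycle. Ink4 proteins bind Cdk4 and Cdk6 alone and keep them from their D cyclins, whereas Cip/Kip proteins bind complexes of a cyclin with its kinase, above all those of Cdk2. In the developing cortex, p27 (from Cdkn1b) and p57 (from Cdkn1c) are known for their part in the exit of progenitors from the cell cycle, p18 (from Cdkn2c) is made in cycling progenitors, and p19Ink4d (from Cdkn2d) is also made in neurons. p21 (from Cdkn1a) is a classical target of p53, and the Cdkn2a locus, which Polycomb proteins silence in many embryonic tissues, encodes both p16 and p19Arf.

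The libraries agreed closely within groups, with Pearson's r across tested genes from 0.975 to 0.993. All 6 genes of a list of cortical tissue markers were above 1 TPM in each group, with summed levels of 1590 to 1943 TPM in mutant dorsal against 2035 to 2231 TPM in control dorsal libraries, and of 1233 to 1507 TPM in mutant medial against 1568 to 1925 TPM in control medial libraries. By Xist and Ddx3y, all 4 mutant embryos were male, while control embryos 2, 3 and 4 were female, so sex differs between the genotypes; a fit with a term for sex kept each of the calls of the Cdk inhibitor genes between genotypes, while 4612 genes passed dorsally and 4772 medially over all genes, against 5070 and 5357 without it. Mutant embryo 3 had the lowest summed pan-neuronal markers in both regions (2579 TPM dorsally and 1988 TPM medially), and its medial library also had the highest summed meningeal markers (80.3 TPM, against 6.00 to 32.1 TPM in the other mutant medial libraries). Summed choroid plexus markers were 165 TPM in mutant medial library 3, against 2.08 to 18.2 TPM in the other mutant medial libraries, and 957 TPM in control medial library 4, against 1.23 to 60.1 TPM in the other control medial libraries. Without control medial library 4 each call of a Cdk inhibitor gene between genotypes was kept, with Cdkn1c at -1.24 medially (log2 change of TPM + 1, limma, adjusted p = 1.78e-08). Control medial libraries 2 and 3 had the lowest summed cortical tissue markers of the medial controls, at 1568 and 1579 TPM. They also had the highest summed radial glia markers of that group, at 3950 and 3906 TPM. The part of this difference in the values of the Cdk inhibitor genes was not tested. Libraries with the same number in the 2 regions of a genotype went together across genes and are called embryos here.

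Of the 7 genes, 5 were expressed at 1 TPM or more in at least 4 libraries and entered the test. In mutant dorsal cortex the order of mean levels was Cdkn1b, Cdkn2d, Cdkn1c, Cdkn2c, Cdkn1a, Cdkn2b, Cdkn2a, and the ranges of neighbours overlapped for Cdkn2b and Cdkn2a alone. Cdkn2d stood above Cdkn1c in 4 of 4 mutant dorsal libraries. In control dorsal cortex Cdkn1c stood above Cdkn2d in 6 of 6 libraries, the other members kept the same order, and Cdkn2b and Cdkn2a again overlapped. In mutant medial cortex Cdkn1c and Cdkn2d did not differ beyond their spread (Cdkn1c was higher in 2 of 4 libraries), nor did Cdkn2b and Cdkn2a. In control medial cortex Cdkn1b and Cdkn1c did not (Cdkn1b was higher in 3 of 5 libraries), nor did Cdkn2b and Cdkn2a. Cdkn1b ranked high among all tested genes, with 5.89% of them above it in mutant dorsal and 4.99% in control dorsal cortex. Cdkn1a was a rare transcript beside the other tested members, with 89.1% of tested genes above it in mutant dorsal and 95.9% in control dorsal cortex.

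**Figure D1:**
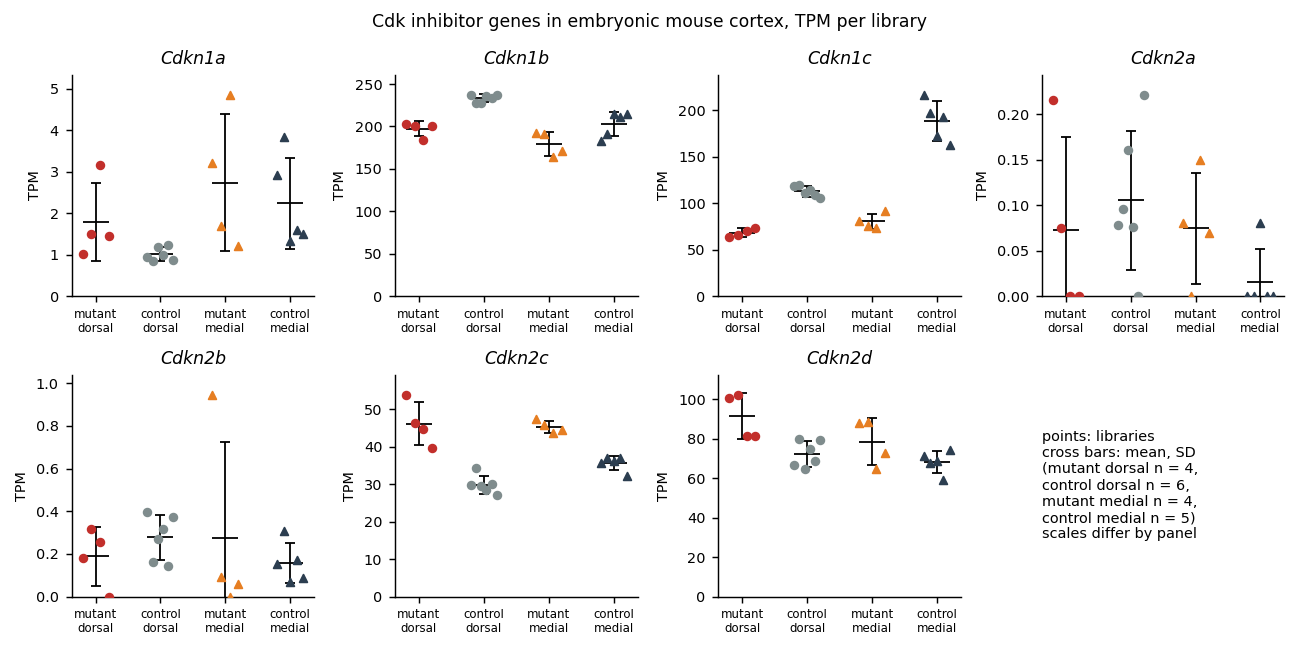
TPM of each Cdk inhibitor gene (y axis, linear, a scale per panel) in each library (points) of the 4 groups, with mean and SD as cross bars. The 4 mutant medial libraries of Cdkn1c lie between 73.9 and 91.4 TPM, all below the control medial libraries at 163 to 217 TPM, while the mutant libraries of Cdkn2c lie above the controls of the same region.

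The main question was what active Smoothened changed in dorsal cortex. There Cdkn1c and Cdkn1b fell and Cdkn2c and Cdkn2d rose in the mutants. So 4 of the 5 tested genes passed the test (limma on log2 of TPM + 1, Benjamini-Hochberg adjusted p under 0.05), where 37.5% of the 13520 tested genes did, 9.93% higher and 27.6% lower. The same 4 genes had libraries that did not overlap between genotypes, as had 24.8% of tested genes. In medial cortex 3 of the 5 passed, Cdkn1c and Cdkn1b lower and Cdkn2c higher, against 39.6% of tested genes, 9.44% higher and 30.2% lower. Of these, Cdkn1c and Cdkn2c did not overlap between genotypes, against 30.4% of tested genes. The median change over the 5 genes was 0.33 dorsally, the value of Cdkn2d, and 0.16 medially, the value of Cdkn1a, which did not pass. Over all tested genes it was -0.10 and -0.11. The sum of all 7 genes was lower in the mutants. It was 405 ± 17.8 TPM in mutant and 450 ± 9.65 TPM in control dorsal cortex (SD). Medially it was 387 ± 27.4 TPM in mutant and 498 ± 9.34 TPM in control cortex (SD). The medial and dorsal libraries of an embryo share their source, so the regions do not count as independent repeats. The balance of higher and lower genes depended on scaling: of all tested genes 1343 rose and 3727 fell dorsally as deposited, and 2109 rose and 1920 fell after rescaling each library by its median ratio to the rest. Medially 1276 rose and 4081 fell as deposited, and 2179 rose and 2261 fell after that rescaling. Quantile normalization gave 1959 and 2173 dorsally and 2164 and 2275 medially, and it moved the medial median of all genes to -0.01.

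**Figure D2:**
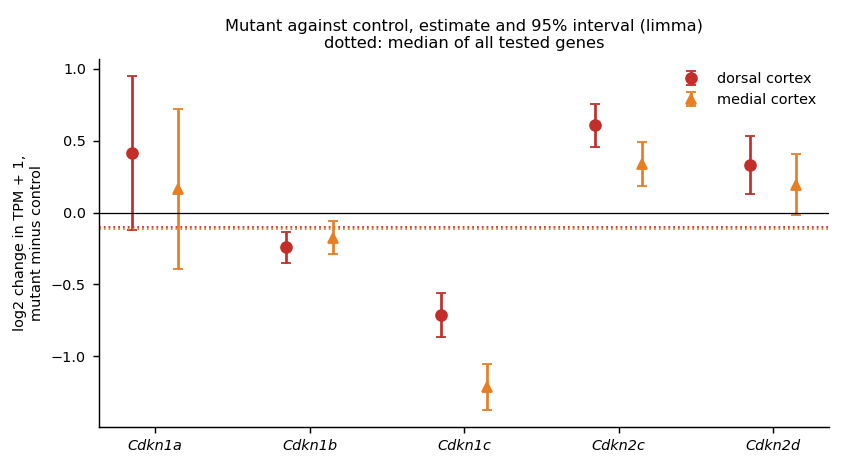
Log2 change in TPM + 1, mutant minus control (y axis), with its 95% interval from limma for the 5 tested genes (x axis), in dorsal (circles) and medial (triangles) cortex; dotted lines mark the median change of all tested genes. Cdkn1c lies at -0.71 and -1.21, and Cdkn2c at 0.61 and 0.34.

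Cdkn1c (ENSMUSG00000037664.13, chromosome 7, 143458339 to 143461050, minus strand, GRCm38) encodes p57 and is an imprinted gene expressed mainly from the maternal allele. It had the largest change among the 5 tested members in both regions. Its level was 63.2, 65.9, 70.6 and 73.7 TPM in the mutant dorsal libraries, against a lowest of 105 TPM, a median of 113 TPM and a highest of 119 TPM in the 6 control dorsal libraries. The mutant libraries all lay under the control libraries, and the mean was 68.4 ± 4.71 TPM in mutant (SD, n = 4) and 113 ± 5.57 TPM in control dorsal cortex (SD, n = 6). Cdkn1c fell by 0.71 ± 0.07 dorsally (log2 change of TPM + 1 ± SE, limma, adjusted p = 7.45e-07), and 1.65% of tested genes had a more negative change. In medial cortex it was at 80.9, 75.9, 73.9 and 91.4 TPM in the mutant libraries, against 217, 197, 173, 193 and 163 TPM in the control libraries. Each mutant library was again under each control library, and the mean was 80.5 ± 7.80 TPM in mutant (SD, n = 4) and 188 ± 21.2 TPM in control medial cortex (SD, n = 5). Cdkn1c fell by 1.21 ± 0.08 medially (limma, adjusted p = 4.19e-09), and 0.525% of tested genes had a more negative change. An antisense transcript, Gm44732, is annotated within Cdkn1c and has no row of its own in the table; whether strand was used in quantification is not given in the sources used here, so reads of the 2 cannot be told apart.

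The neighbours of Cdkn1c in its imprinted domain mostly had low values. The depth, annotation and quantifier are not given, so a low value or a listed 0 does not show that a gene was silent. Of 12 domain genes other than Cdkn1c, 8 had means under 1 TPM in each group, among them Kcnq1 and Phlda2, and Kcnq1ot1, the long non-coding RNA of the domain, was listed at 0 in all 19 libraries. Of the 4 tested, Osbpl5, which encodes a lipid transfer protein, fell in both regions. It was at 21.1 ± 1.69 TPM in mutant and 31.5 ± 2.43 TPM in control dorsal cortex, and at 28.1 ± 2.15 TPM in mutant and 45.5 ± 3.10 TPM in control medial cortex. Its log2 change was -0.56 ± 0.07 dorsally and -0.68 ± 0.07 medially (limma, adjusted p = 4.24e-06 and 1.03e-06). Tssc4 rose by 0.21 ± 0.04 and 0.25 ± 0.04 (adjusted p = 0.000418 and 0.000119). Nap1l4, which encodes a histone chaperone, did not pass, at 0.08 ± 0.03 dorsally and 0.07 ± 0.03 medially. Nor did Cd81, which encodes a tetraspanin, at 0.00 ± 0.06 dorsally and 0.03 ± 0.06 medially. So 1 domain gene rose and 1 fell of 4 in each region, which is 50%, against 37.5% of all tested genes dorsally and 39.6% medially.

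Cdkn1b (ENSMUSG00000003031.14, chromosome 6, 134920401 to 134925513, plus strand) encodes p27 and was the most abundant of the 7 by mean in each group. The level was 203, 201, 184 and 201 TPM in the mutant dorsal libraries, against a lowest of 228 TPM, a median of 235 TPM and a highest of 237 TPM in control dorsal libraries. The groups did not overlap, and mutant dorsal library 3 was well under the other 3. Cdkn1b fell by 0.24 ± 0.05 dorsally (limma, adjusted p = 0.00149), 0.14 below the median change of all genes. In medial cortex it was at 192, 191, 164 and 171 TPM in mutant libraries, against 183, 191, 214, 211 and 214 TPM in control libraries. Control medial libraries 2 and 3 lay within the range of the mutants, and the change was -0.18 ± 0.05 (limma, adjusted p = 0.0149), 0.06 below the median of all genes. After median-ratio rescaling neither fall passed the test, with a log2 change of -0.15 dorsally (adjusted p = 0.0567) and -0.07 medially (adjusted p = 0.397). The medial fall also did not pass without mutant medial library 3 (adjusted p = 0.0683) or 4 (0.0504), without both libraries of mutant embryo 3 (0.0557), in a fit of the medial libraries alone (0.0635) or with a block by title number (0.193).

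Cdkn1a (ENSMUSG00000023067.14, chromosome 17, 29090976 to 29100727, plus strand) encodes p21 and varied most between libraries among the tested members. Its coefficient of variation was 52.6% in mutant dorsal, 15.8% in control dorsal, 60.2% in mutant medial and 48.9% in control medial libraries. It was at 1.03, 1.51, 3.16 and 1.45 TPM in mutant dorsal libraries, against a lowest of 0.861 TPM, a median of 0.976 TPM and a highest of 1.25 TPM in control dorsal libraries. In medial cortex it was at 3.21, 1.68, 4.86 and 1.21 TPM in mutant libraries, against 2.92, 3.83, 1.32, 1.60 and 1.51 TPM in control libraries. Mutant embryo 3 was the highest of the mutants in both regions, and control embryos 2 and 3 were the highest of the medial controls. The groups overlapped in both regions, and the change passed in neither, at 0.41 ± 0.26 dorsally (limma, adjusted p = 0.218) and 0.16 ± 0.27 medially (adjusted p = 0.657). Without mutant medial library 3 the medial change was -0.09. A transcript on the other strand, AC167363.2, lies within Cdkn1a and has no row in the table.

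The promoters of both genes are shown because Cdkn1a is a textbook p53 target and its window holds the letters of a p53 site, and because the Cdkn1b window holds several CCAAT boxes, the letters bound by NF-Y. Each window runs from 250 bases before to 50 bases after an annotated start (RefSeq, GRCm38.p6); such windows were found for 6 of the 7 genes, 9 windows in all. Capitals mark CATGNNNNNNCATG (the core of a paired p53 site), CCAAT or its reverse complement ATTGG, and GGGCGG (the GC box) or its reverse complement CCGCCC. The windows are chr17:29090729-29091028 for the upstream start of Cdkn1a and chr6:134920151-134920450 for Cdkn1b, both on the plus strand.
Cdkn1a upstream start: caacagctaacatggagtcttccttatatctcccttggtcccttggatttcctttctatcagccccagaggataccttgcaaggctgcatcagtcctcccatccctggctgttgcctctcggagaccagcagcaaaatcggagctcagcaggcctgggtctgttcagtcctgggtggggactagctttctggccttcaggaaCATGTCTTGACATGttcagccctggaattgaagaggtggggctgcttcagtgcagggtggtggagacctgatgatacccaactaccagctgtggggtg
Cdkn1b: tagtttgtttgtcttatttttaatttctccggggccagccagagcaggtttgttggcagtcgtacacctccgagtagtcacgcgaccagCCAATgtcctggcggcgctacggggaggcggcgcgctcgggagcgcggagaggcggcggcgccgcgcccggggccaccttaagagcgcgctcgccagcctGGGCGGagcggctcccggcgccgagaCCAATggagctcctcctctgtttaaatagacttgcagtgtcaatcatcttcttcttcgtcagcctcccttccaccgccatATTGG
The p53 pair core is held by 0.624% of 32544 promoters of this length, and among the 9 windows of the members by the upstream Cdkn1a window alone. Cdkn1b holds 3 CCAAT boxes, a motif in 37.4% of promoters. No marked motifs overlapped in the windows shown, and a match is a description of the letters only.

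The list of p53 and its targets gives the setting of Cdkn1a. Of 14 tested genes, 2 rose and 4 fell dorsally, with a median of -0.05, and 1 rose and 2 fell medially, with a median of -0.02. That is 42.9% and 21.4% of the list, near and below the 37.5% and 39.6% of all tested genes. Eda2r, a p53 target gene for a receptor of the TNF family, rose by 1.43 ± 0.25 dorsally and by 1.58 ± 0.26 medially (limma, adjusted p = 0.000256 and 0.000143). Trp53inp1, another target, fell by 0.84 ± 0.10 and 0.88 ± 0.10 (adjusted p = 3.30e-06 and 4.27e-06). Sesn2, a stress response gene, rose by 0.51 ± 0.14 and Bbc3, a gene of cell death, fell by 0.45 ± 0.12 dorsally (adjusted p = 0.00724 and 0.00785). Plk2, a polo-like kinase gene, fell by 0.57 ± 0.17 medially (adjusted p = 0.0114). The genes of the list that passed had changes of both signs, and Cdkn1a itself did not pass.

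Cdkn2c (ENSMUSG00000028551.14, chromosome 4, 109660876 to 109667189, minus strand) encodes p18 and rose in both regions. It was at 53.8, 46.4, 44.7 and 39.8 TPM in mutant dorsal libraries, against a lowest of 27.1 TPM, a median of 29.7 TPM and a highest of 34.2 TPM in control dorsal libraries. It was at 47.5, 45.7, 43.7 and 44.5 TPM in mutant medial libraries, against 35.6, 37.0, 36.3, 37.0 and 32.2 TPM in control medial libraries. Each mutant library was above each control library of its region. The mean was 46.2 ± 5.82 TPM in mutant and 29.9 ± 2.38 TPM in control dorsal cortex, and 45.3 ± 1.66 TPM in mutant and 35.6 ± 1.99 TPM in control medial cortex. Cdkn2c rose by 0.61 ± 0.07 dorsally (limma, adjusted p = 3.31e-06) and by 0.34 ± 0.07 medially (adjusted p = 0.00133). Dorsally 3.45% of tested genes and medially 6.60% had a more positive change.

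Cdkn2d (ENSMUSG00000096472.2, chromosome 9, 21288410 to 21291407, minus strand) encodes p19Ink4d. It was at 101, 102, 81.1 and 81.2 TPM in mutant dorsal libraries, against a lowest of 64.6 TPM, a median of 71.7 TPM and a highest of 79.7 TPM in control dorsal libraries. It was at 88.1, 88.6, 64.6 and 72.6 TPM in mutant medial libraries, against 71.3, 67.7, 68.5, 58.9 and 74.0 TPM in control medial libraries. Mutant embryos 1 and 2 were high and embryos 3 and 4 lower in both regions, so the groups came close dorsally without overlap and overlapped medially. Cdkn2d rose by 0.33 ± 0.10 dorsally (limma, adjusted p = 0.0124; 0.0532 without mutant dorsal library 1). Medially the change of 0.19 ± 0.10 did not pass (adjusted p = 0.138), while it passed after median-ratio rescaling (0.30, adjusted p = 0.0473), without mutant medial library 3 (0.28, adjusted p = 0.0361) and without both libraries of mutant embryo 3 (0.28, adjusted p = 0.0311).

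A promoter window of each of the 2 Ink4 genes that rose dorsally is shown because it holds several GC boxes, the letters bound by Sp1. The windows are chr4:109666707-109667006 for the upstream start of Cdkn2c and chr9:21291160-21291459 for Cdkn2d, both on the minus strand (RefSeq, GRCm38.p6), with the same capitals as above.
Cdkn2c upstream start: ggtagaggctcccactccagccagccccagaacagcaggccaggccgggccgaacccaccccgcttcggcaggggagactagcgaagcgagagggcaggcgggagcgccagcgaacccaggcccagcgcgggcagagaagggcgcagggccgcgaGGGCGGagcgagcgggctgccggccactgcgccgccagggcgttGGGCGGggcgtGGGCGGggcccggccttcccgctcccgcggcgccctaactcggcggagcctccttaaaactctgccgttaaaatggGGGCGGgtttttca
Cdkn2d: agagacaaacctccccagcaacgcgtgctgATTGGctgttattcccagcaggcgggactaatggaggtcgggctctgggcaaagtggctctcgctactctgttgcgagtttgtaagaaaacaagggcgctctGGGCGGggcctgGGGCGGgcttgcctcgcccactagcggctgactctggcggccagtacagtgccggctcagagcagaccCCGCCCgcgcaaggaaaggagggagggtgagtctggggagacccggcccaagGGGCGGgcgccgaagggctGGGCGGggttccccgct
The upstream Cdkn2c window holds 4 and the Cdkn2d window 5 GC boxes, and 35.9% of promoters of this length hold at least 1. The other Cdkn2c window, chr4:109665323-109665622, holds 0. A window of Cdkn2a, chr4:89294570-89294869, holds 3, so several GC boxes are not particular to the genes that rose. An E2F core (TTTNNCGC, in 5.20% of promoters) was found in neither window shown, and among the members in both windows of Cdkn2a alone. The Gli binding letters GACCACCCA, held by 0.246% of promoters, were in 0 of the 9 windows. The search used both strands, and the absence of letters says only that they are not within these windows.

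Cdkn2a (ENSMUSG00000044303.6, chromosome 4, 89274471 to 89294653) and Cdkn2b (ENSMUSG00000073802.5, chromosome 4, 89306299 to 89311039), which encodes p15, lie 11645 bases apart on the minus strand and were close to absent. Cdkn2a was listed at 0 in 8 of 19 libraries and reached at most 0.222 TPM, and a gene-level value does not separate p16 from p19Arf. Cdkn2b was listed at 0 in 2 of 19 libraries and reached 0.945 TPM in mutant medial library 1, the highest value of any library. Neither entered the limma test, and none of 8 housekeeping genes was at 0 in any library. Cdkn2b means were 0.189 ± 0.138 TPM in mutant and 0.277 ± 0.107 TPM in control dorsal cortex, and 0.274 ± 0.449 TPM in mutant and 0.157 ± 0.0933 TPM in control medial cortex. Over both genes and the 4 comparisons of groups, 8 two-sided exact permutation tests on mean TPM gave no p under 0.0693. With sequencing depth unknown, the amount that these libraries could have detected cannot be stated.

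Summing the members shows a shift between the families. Cip/Kip transcripts summed to 267, 268, 258 and 276 TPM in mutant dorsal libraries, against a lowest of 340.0 TPM, a median of 346 TPM and a highest of 356 TPM in control dorsal libraries. In medial cortex the sum was 276, 269, 243 and 264 TPM in mutant libraries, against 403, 392, 388, 406 and 379 TPM in control libraries. Ink4 transcripts summed to 138 ± 16.7 TPM in mutant and 102 ± 7.27 TPM in control dorsal cortex, and to 124 ± 13.6 TPM in mutant and 104 ± 4.43 TPM in control medial cortex. The Ink4 share of all 7 was 33.9% ± 2.84 in mutant and 22.8% ± 1.26 in control dorsal cortex, and 32.0% ± 1.40 in mutant and 20.9% ± 1.04 in control medial cortex. No mutant library had an Ink4 share as low as any control library of its region. Within the Cip/Kip family, Cdkn1c made up 25.6% ± 1.75 of the sum in mutant and 32.5% ± 1.28 in control dorsal cortex, and 30.7% ± 2.79 in mutant and 47.8% ± 4.36 in control medial cortex.

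The kinases and cyclins that these inhibitors bind were higher in the mutants. Of 8 tested G1 kinases and cyclins, 7 rose and 0 fell dorsally and 6 rose and 0 fell medially, with medians of 0.75 and 0.53. Over all tested genes 9.93% rose dorsally and 9.44% medially (15.6% and 16.1% after median-ratio rescaling). The medians of all tested genes were -0.10 and -0.11. Ccne2, which encodes a cyclin of Cdk2, rose by 0.97 ± 0.11 dorsally and 0.94 ± 0.11 medially (limma, adjusted p = 2.82e-06 and 7.93e-06). Cdk2, a main target of Cip/Kip proteins, rose by 0.59 ± 0.08 and 0.49 ± 0.08 (adjusted p = 1.75e-05 and 0.000159). The Cip/Kip sum over the sum of the 3 D cyclin genes, in TPM, was 0.518 ± 0.0649 in mutant and 1.35 ± 0.121 in control dorsal cortex, and 0.482 ± 0.0716 in mutant and 1.27 ± 0.0943 in control medial cortex. The Ink4 sum over that of Cdk4 and Cdk6 was 0.192 ± 0.0287 in mutant and 0.164 ± 0.00998 in control dorsal cortex, and 0.166 ± 0.0198 in mutant and 0.155 ± 0.00961 in control medial cortex, with overlapping ranges in both regions. Cdk6 made up 8.57% ± 1.12 of the summed Cdk4 and Cdk6 transcripts in mutant and 3.38% ± 0.666 in control dorsal cortex, and 8.16% ± 1.02 in mutant and 1.85% ± 0.583 in control medial cortex.

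**Figure D3:**
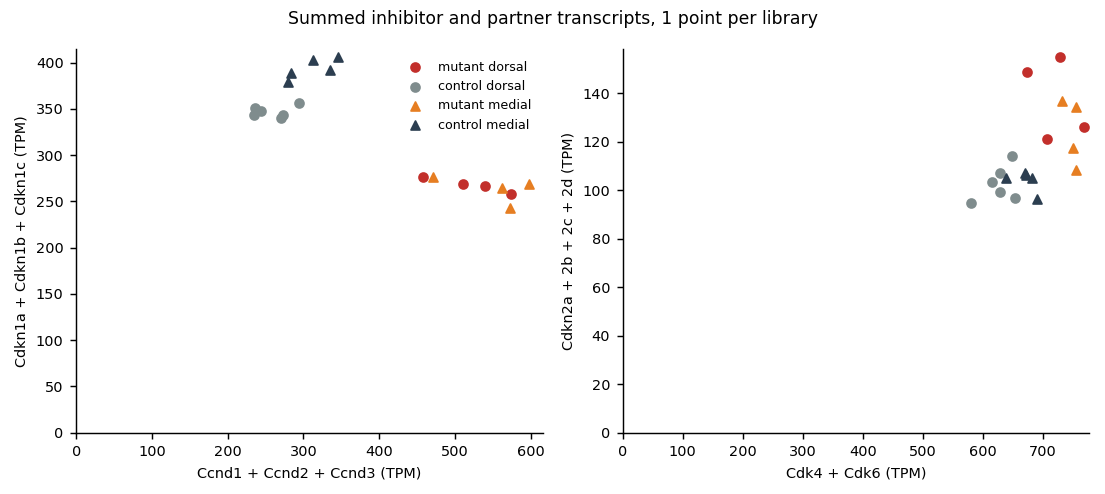
Left, summed Cip/Kip TPM (y axis) against summed D cyclin TPM (x axis); right, summed Ink4 TPM against summed Cdk4 and Cdk6 TPM, 1 point per library, all axes linear from 0. On the left the mutant libraries of both regions lie at 243 to 276 TPM of Cip/Kip transcripts and 458 to 598 TPM of D cyclins, apart from the controls at 340.0 to 406 TPM and 235 to 346 TPM.

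Genes downstream of the kinases and genes that turn over the inhibitors were listed as well. Of 11 pocket protein and E2F genes, 7 rose and 1 fell dorsally, and 7 rose and 0 fell medially, with medians of 0.42 and 0.27. That is 72.7% and 63.6% of the list, against 37.5% and 39.6% of all tested genes. E2f2 rose by 1.00 ± 0.11 and 0.76 ± 0.12 and E2f8 by 0.87 ± 0.13 and 0.69 ± 0.13 (dorsal and medial, limma, adjusted p from 2.11e-06 to 0.000506). Rbl1, which encodes the pocket protein p107, rose by 0.44 ± 0.07 dorsally (adjusted p = 0.000126). Of 12 ubiquitin ligase genes that degrade Cip/Kip proteins, 3 rose and 2 fell dorsally and 3 rose and 4 fell medially, which is 41.7% and 58.3% of them against 37.5% and 39.6% of all tested genes, with medians of -0.03 and -0.02. Skp2, the subunit that recognises phosphorylated p27, was at 39.2 ± 5.49 TPM in mutant and 26.4 ± 2.31 TPM in control dorsal cortex, and at 48.3 ± 5.87 TPM in mutant and 34.0 ± 2.80 TPM in control medial cortex. It rose by 0.55 ± 0.09 and 0.49 ± 0.09 (adjusted p = 0.000152 and 0.000557), and its cofactor Cks1b by 0.57 ± 0.08 and 0.47 ± 0.08 (adjusted p = 1.64e-05 and 0.000161). Dtl, which marks p21 for destruction in S phase, rose by 0.80 ± 0.08 and 0.55 ± 0.08 (adjusted p = 5.57e-07 and 5.96e-05). Rnf123, a subunit of the ligase that degrades p27 in G1, fell by 0.24 ± 0.07 and 0.31 ± 0.07 (adjusted p = 0.00799 and 0.00185). These are transcript levels, and no protein was measured.

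Markers of cell classes were counted by those past the test in each direction. Over all tested genes 9.93% rose and 27.6% fell dorsally, and 9.44% rose and 30.2% fell medially. Endothelial, pericyte, erythroid, meningeal and choroid plexus markers passed at shares below these. All 12 of 12 S phase genes rose in both regions, and their summed level was 1983 to 2622 TPM in mutant dorsal against 1126 to 1347 TPM in control dorsal libraries, and 2406 to 2752 TPM in mutant medial against 1408 to 1613 TPM in control medial libraries. Of 13 pan-neuronal markers, 8 fell and 0 rose in each region, which is 61.5% of them. Their sum was 2579 to 3831 TPM in mutant dorsal against 3947 to 4658 TPM in control dorsal libraries, and 1988 to 2577 TPM in mutant medial against 3009 to 3707 TPM in control medial libraries. Of 9 radial glia markers, 5 rose and 2 fell dorsally and 3 rose and 1 fell medially, with sums of 2550 to 2752 TPM in mutant and 2473 to 2838 TPM in control dorsal libraries, and of 3013 to 3395 TPM in mutant and 3102 to 3950 TPM in control medial libraries. Of 5 intermediate progenitor markers, 1 rose and 1 fell in each region. That is 40% of them, against 37.5% dorsally and 39.6% medially of all tested genes in either direction. Of 5 tested Cajal-Retzius markers, 0 passed dorsally and 5 fell medially. Their sums were 40.0 to 89.2 TPM in mutant and 97.2 to 162 TPM in control medial libraries. Of 6 tested interneuron markers, 0 passed dorsally, where their median change was -0.39, and 3 fell medially. Of 7 microglia markers, 4 fell dorsally and 0 passed medially. Of 7 endothelial markers 1 fell dorsally, and of 4 pericyte markers 1 fell in each region. Of 7 erythroid markers 0 passed in either region. Of 6 meningeal markers 1 fell dorsally, and of 4 choroid plexus markers 1 fell medially. No defining marker of these classes was at 0 in all libraries of a group. The part of these classes in the changes of the Cdk inhibitor genes was not tested. Each mutant library, those of mutant embryo 3 or not, had a lower pan-neuronal sum than each control library of its region. Without both libraries of mutant embryo 3, Cdkn1c fell by 0.73 dorsally and 1.17 medially (limma, adjusted p = 5.61e-06 and 1.29e-07) and Cdkn2c rose by 0.62 and 0.36 (adjusted p = 3.14e-05 and 0.00334). In the same fit Cdkn1b medially did not pass (adjusted p = 0.0557) and Cdkn2d medially did (adjusted p = 0.0311).

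Within each genotype, medial cortex was set against dorsal cortex. In mutant cortex 0 of the 5 tested genes passed, against 18.8% of all tested genes, although 2 had an unadjusted p under 0.05 (Cdkn1c 0.00955 and Cdkn1b 0.0277, limma), and the libraries of Cdkn1c alone did not overlap between regions, against 15.2% of tested genes. With the embryo as a block 3 passed, Cdkn1c higher and Cdkn1b and Cdkn2d lower medially, against 39.1% of all tested genes with the random and 36.6% with the fixed block. In control cortex 3 of 5 passed, Cdkn1c and Cdkn2c higher and Cdkn1b lower in medial cortex, against 32.4% of tested genes. Libraries of Cdkn1a, Cdkn1b and Cdkn1c did not overlap between the control regions, against 20.5% of tested genes. All 5 passed with the embryo as a fixed block, under which 46.8% of all tested genes did.

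Within embryos Cdkn1c was higher medially in all of them, by 1.28, 1.15, 1.05 and 1.24 times in mutant embryos 1 to 4 and by 1.82, 1.78, 1.51, 1.78 and 1.55 times in control embryos 2 to 6. The ranges of the genotypes did not overlap, but the share of all tested genes whose ratios separate in this way was not computed. The regional change of Cdkn1c was 0.23 ± 0.08 in mutants (limma, adjusted p = 0.0506; 0.00324 with embryo as a random block and 0.00689 as a fixed block) and 0.73 ± 0.07 in controls (adjusted p = 3.78e-06). The mutant value passed without mutant dorsal library 3, control medial 2, control medial 6 or mutant medial 2 (adjusted p = 0.0343 to 0.0478). Cdkn1b was lower medially in all 4 mutant and all 5 control embryos, at -0.14 ± 0.06 in mutants (adjusted p = 0.102; 0.00946 and 0.0149 with the random and the fixed block, and 0.0422 without mutant dorsal library 3) and -0.20 ± 0.05 in controls (adjusted p = 0.00399). Cdkn2c was higher medially in 1 of 4 mutant and 5 of 5 control embryos, at -0.02 ± 0.08 in mutants (adjusted p = 0.911) and 0.25 ± 0.07 in controls (adjusted p = 0.00763). Cdkn2d was lower medially in 4 of 4 mutant and 4 of 5 control embryos, at -0.22 ± 0.11 in mutants (adjusted p = 0.160; 0.0127 and 0.00274 with the random and the fixed block) and -0.08 ± 0.09 in controls (adjusted p = 0.535; 0.0464 with the fixed block). Cdkn1a was higher medially in 3 of 4 mutant and 5 of 5 control embryos, at 0.37 ± 0.28 in mutants (adjusted p = 0.389) and 0.62 ± 0.24 in controls (adjusted p = 0.0550; 0.00761 and 0.0187 with the random and the fixed block). The control value of Cdkn1a also passed without mutant dorsal library 3, control medial 4, control medial 6, mutant medial 3 or mutant medial 4 (adjusted p = 0.0324 to 0.0484), without mutant embryo 3 (0.0175), in a fit of the control libraries alone (0.0176), and with log2(TPM + 0.1) or log2(TPM + 0.5) (0.0386 and 0.0470).

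**Figure D4:**
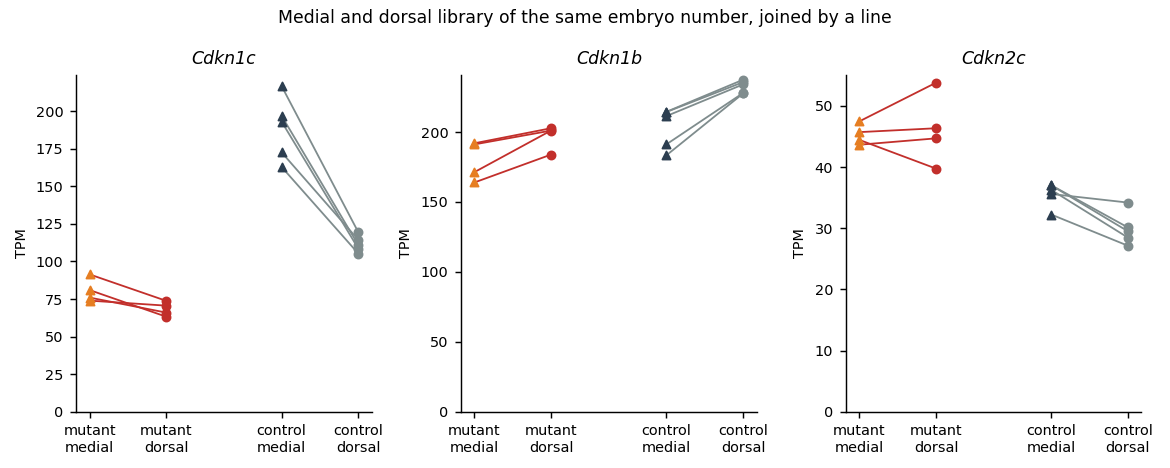
TPM (y axis) of Cdkn1c, Cdkn1b and Cdkn2c in the medial (triangles) and dorsal (circles) library of each embryo, joined by a line, for 4 mutant and 5 control embryos. The lines of Cdkn1c are steep in controls, with medial over dorsal ratios of 1.51 to 1.82, and flatter in mutants, at 1.05 to 1.28.

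Whether the mutant effect differed between the regions was tested as the medial minus the dorsal effect. None of the 5 genes passed in the fit without embryos (limma; the lowest unadjusted p was 0.000156 for Cdkn1c, and Cdkn2c had 0.0168), and 0.0074% of all tested genes did. For Cdkn1c the difference was -0.50 ± 0.11 (limma, adjusted p = 0.302), a larger fall medially. With the embryo as a random block it was -0.51 ± 0.07 (adjusted p = 0.00693) and with the embryo as a fixed block -0.51 ± 0.07 (adjusted p = 0.0248), where 0.362% and 0.118% of all tested genes passed, so this call rests on the pairing of libraries. The mean log2 of medial over dorsal TPM was 0.23 ± 0.13 in mutant (SD, n = 4) and 0.74 ± 0.13 in control embryos (SD, n = 5), which differed in a two-sided exact permutation test (p = 0.0159, unadjusted over 5 genes, the smallest p this design allows). For Cdkn2c that difference was -0.27 (exact permutation p = 0.0317), and for the other 3 genes p was at least 0.0952.

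Genes whose pattern was most like that of a member were looked up among 12229 tested genes, by Pearson's r of log2(TPM + 1) over the 19 libraries. The members and names of predicted genes, clones, small RNA, mitochondrial genes and pseudogenes were left out of this ranking. This is a description, since the libraries fall into 4 groups and share the same scaling. Cdkn1c was most like Nfatc4, a gene of the NFAT transcription factor family (r = 0.974), then Lrrc75b (0.959) and Pcdh17, a protocadherin gene (0.953). Nfatc4 was at 9.13 ± 2.22 TPM in mutant and 27.7 ± 4.35 TPM in control dorsal cortex, and at 14.5 ± 3.11 TPM in mutant and 55.0 ± 6.89 TPM in control medial cortex. Cdkn2c was most like 3 genes of mitosis, the kinetochore genes Ndc80 (0.961) and Ska1 (0.952) and the kinase gene Pbk (0.955). Ndc80 was at 81.9 ± 9.61 TPM in mutant and 48.3 ± 2.06 TPM in control dorsal cortex, and at 91.0 ± 6.80 TPM in mutant and 62.1 ± 3.83 TPM in control medial cortex. Cdkn1b was most like Kdm1a, which encodes a histone demethylase (0.954), Uckl1 (0.947) and Herc3 (0.947). Cdkn2d was most like Dynlt1f (0.924), Ripply2 (0.894) and Dynlt1a (0.880); Dynlt1a and Dynlt1f are near-identical dynein light chain genes whose reads may be shared. Cdkn1a was most like Fam212b (0.949), Alg3 (0.898) and Cflar (0.870).

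After removal of group means, which leaves the differences among libraries of a group, the likeness of Cdkn1a stayed high, with Fam212b (r = 0.928), the p53 target Eda2r (0.905) and the axon guidance gene Slit2 (0.879). Eda2r was at 4.43, 4.13, 10.4 and 4.12 TPM in mutant dorsal libraries, against a lowest of 1.07 TPM, a median of 1.37 TPM and a highest of 1.65 TPM in control dorsal libraries, and at 12.5, 7.52, 19.04 and 7.07 TPM in mutant medial libraries, against 3.70, 4.35, 2.33, 2.14 and 2.49 TPM in control medial libraries. Mutant embryos 3 and 1 and control embryos 2 and 3 were the high medial libraries of their genotype for both Cdkn1a and Eda2r. The same medial libraries were also the highest of their genotype for Fam212b and Slit2, so this match is not particular to Eda2r. For Cdkn2c the closest were Taf8 (0.806), Ndc80 (0.774) and Pbk (0.752), for Cdkn2d Sars, Atp5f1 and Ppp2r3c (0.925, 0.923 and 0.913), and for Cdkn1b Wdr5b, Robo2 and Snhg18 (0.868, 0.866 and 0.859). For Cdkn1c the highest was 0.732, with Mab21l1, followed by Adipor2 and Prrx1. Among the members themselves, Cdkn1a and Cdkn1b had the most negative r after removal of group means (-0.62).

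**Figure D5:**
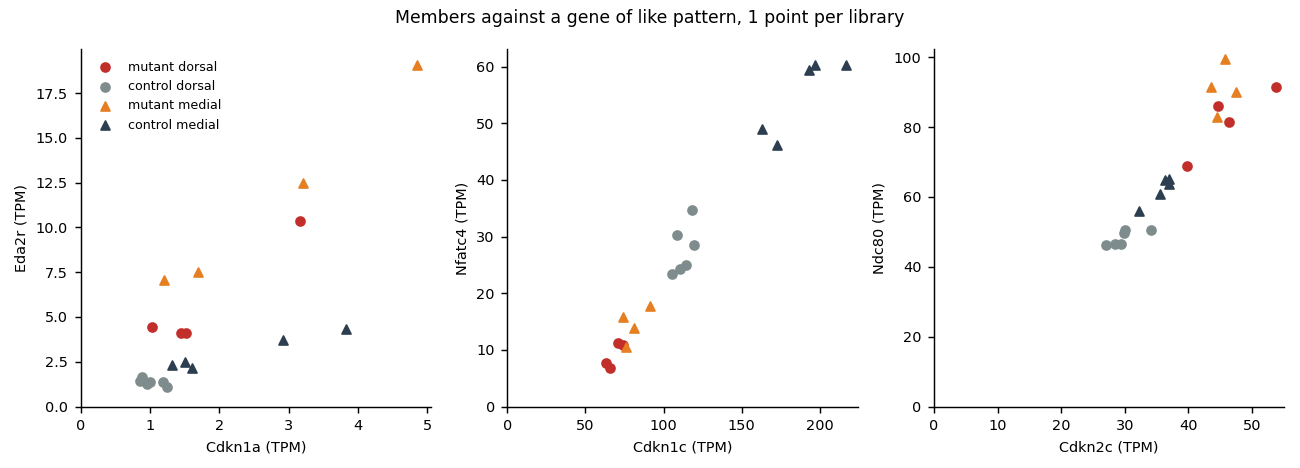
TPM of Eda2r, Nfatc4 and Ndc80 (y axes) against TPM of Cdkn1a, Cdkn1c and Cdkn2c (x axes), 1 point per library, linear axes from 0. Nfatc4 and Cdkn1c both lie lower in mutant than in control libraries of the same region, and mutant libraries have higher Eda2r than control libraries of the same region.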

How the data were processed

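Total RNA was sequenced from 19 libraries of dissected E14.5 mouse cortex, with a stranded total RNA kit (TruSeq) per the labels' protocols. The authors deposited TPM values in 1 table for all libraries, on build mm10 per the submitters' processing notes; no source used here gives the aligner, quantifier, annotation or strand setting. TPM of each library sum to 1000000, so they keep no depth, no counting error can be given, and precision rests on the spread between libraries. Groups and numbers come from the titles; the descriptions number the control medial libraries otherwise. The tissue label reads dorsal or medial and the protocol medial or lateral. Nothing in the labels states that the libraries within a group are separate embryos; p-values therefore reflect library spread, possibly technical.

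The Cdk inhibitor genes, the gene lists and the tests were chosen with earlier results of these data known. The 13520 of 47643 genes that reached 1 TPM in at least 4 libraries were fitted as log2(TPM + 1) with limma 3.58.1 under R 4.3.3 (statmod 1.5.0), using 1 mean per group over all 19 libraries, moderated with trend and robust settings; two-sided p-values were adjusted by Benjamini and Hochberg over all tested genes, with a threshold of 0.05. Fold changes on this scale understate changes of low genes. The fit was tested on simulated data for the dorsal comparison, with libraries drawn independently and no smaller change than a log2 of 0.5. It recovered 68 of 100 genes changed by 0.5 and 92 of 100 changed by 1, with 9 false calls. Cdkn2a and Cdkn2b, under the filter, and the medial over dorsal ratio within embryos were compared by two-sided exact permutation tests (scipy 1.17.1). Pairing was checked on deviations from group means: over 9 pairs that share genotype and number across regions, r was 0.549 to 0.795, and over 7 pairs that share region and number across genotypes, -0.436 to 0.138. Within a genotype a number was therefore read as 1 embryo, which rests on these correlations and not on the labels.

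From each pathway list up to 4 genes with the lowest adjusted p in a comparison were open to naming, and for likeness the 3 genes with the highest r per member. Positions are from GENCODE M21 (GRCm38, the assembly of mm10). Alternatives were other pseudocounts, filters and scalings, blocks by embryo or title number, a sex term, eBayes without trend and robust settings, fits of the compared groups alone, and each library left out. Leaving out mutant embryo 3 was added after seeing the data.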

Additional observations from a re-analysis of the deposited data

Results flagged for a closer look

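A library stood far from the rest of its group in 3 of 28 sets examined (7 genes in 4 groups), where chance gives about 1 in 20. Cdkn1b was lowest in mutant dorsal library 3, at 184 TPM, while the other 3 mutant dorsal libraries had 201 to 203 TPM. Cdkn2a was highest in control medial library 4, at 0.0809 TPM, and listed at 0 in the other 4, where the gap equals the whole range by construction and that chance rate does not apply. Cdkn2b was highest in mutant medial library 1, at 0.945 TPM, against at most 0.0927 TPM in the other 3.

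The mutant effect on Cdkn1c differed between the regions when libraries were paired by embryo. The medial minus dorsal difference was -0.51 with the embryo as a random block and also -0.51 as a fixed block (limma, adjusted p = 0.00693 and 0.0248). The medial over dorsal ratio was lower in 4 of 4 mutant embryos than in any of the 5 control embryos. How many of all tested genes separate in this way was not computed.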

How the results depend on the processing

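Over 765 values of single genes under alternatives, 718 kept direction and side of the threshold, 8 no longer passed, 34 passed newly and 5 changed sign. The counts of 4 dorsal and 3 medial members past the test (mutant against control) stayed within 1.5 times in each alternative run. That span cannot register the loss of 1 member. When each library was left out, 3 to 4 passed dorsally and 2 to 3 medially. A kept count can hide a swap of members. Medially, Cdkn1b dropped out and Cdkn2d passed both after median-ratio rescaling and without mutant embryo 3. Under a fixed replicate block by title number, all-gene calls dropped to 2072 dorsally, against 5070. The block by title number, which pairs no libraries across genotypes in these data, gave Cdkn1a a medial log2 change of -0.11. It was 0.16 as reported, from -0.086 (without mutant medial library 3) to 0.38 with 1 library left out, and -0.086 without mutant embryo 3. The causes were not tested.

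For medial against dorsal mutant cortex (0 members passed), 1 member, Cdkn1c, passed with log2(TPM + 0.1), with log2(TPM + 0.5), with at least 5 TPM, with quantile normalization, with a sex term and without mutant embryo 3. With the embryo as a random or fixed replicate block 3 passed. Leaving out each library gave 0 to 2, with 2 without mutant dorsal library 3 and 1 without control medial 2, control medial 6 or mutant medial 2. Cdkn2c, at -0.02, was 0.0014 after quantile normalization and from -0.086 to 0.057 (without mutant dorsal library 1) with 1 library left out. All-gene calls there were 2545, and 5283 and 4950 with the random and fixed block, 0 with the compared groups alone, and 1138, 1372 and 1305 in the fits that lack mutant dorsal library 2, mutant dorsal library 4 and mutant medial library 3. For control cortex (3 members) 5 passed with the embryo as a fixed block, 3 to 4 without a library, and all-gene calls were 6614 with the random block, against 4387. For the difference between regions (0 members) 1 passed under each embryo block, 0 without any 1 library, and all-gene calls were 49 and 16, against 1 without blocks; leaving out mutant embryo 3 gave 0. Beyond those named here and beside the results, the embryo block changed no call.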

Other observations

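Lists of regulators of these genes had members of both signs. Of 17 transcription factors reported to act on Cip/Kip genes, 3 rose and 5 fell dorsally and 4 rose and 4 fell medially, against 37.5% and 39.6% of all genes past the test. Foxo3, an activator of Cdkn1b, was at 21.3 ± 1.30 TPM in mutant and 31.8 ± 1.91 TPM in control dorsal cortex, and at 23.6 ± 2.42 TPM in mutant and 35.4 ± 2.11 TPM in control medial cortex; it fell by 0.56 ± 0.07 and 0.57 ± 0.07 (limma, adjusted p = 3.48e-06 and 5.98e-06). Neurog1, a proneural gene, rose by 0.89 ± 0.19 and 1.19 ± 0.19, and Myc fell by 0.60 ± 0.09 and 0.39 ± 0.09. Of 13 Polycomb genes, 2 rose and 4 fell dorsally and 2 rose and 3 fell medially. That is 46.2% and 38.5% of the list, against 37.5% and 39.6% of all tested genes. Suz12, a core subunit, rose by 0.29 ± 0.06 and 0.27 ± 0.07, and Cbx8 fell by 0.40 ± 0.08 and 0.48 ± 0.08.

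Of 6 kinases and cyclins of S and M phase, 4 rose and 1 fell in each region. That is 83.3% of the list, against 37.5% of all tested genes dorsally and 39.6% medially. Cdk7, which activates other Cdks, was lower by 0.24 ± 0.04 in the dorsal and 0.25 ± 0.04 in the medial mutants. Of 12 imprinted growth genes outside the Cdkn1c domain, 1 rose and 3 fell dorsally and 2 rose and 4 fell medially. These are 33.3% and 50% of the list, against the same 37.5% and 39.6% of all tested genes. Grb10, which encodes a brake on insulin signalling, rose by 0.75 ± 0.09 and 0.48 ± 0.09, and Ndn, a gene of neurons, fell by 0.38 ± 0.05 and 0.33 ± 0.05. Dlk1 rose by 0.70 ± 0.14 medially and had 0.06 ± 0.14 dorsally (limma, adjusted p = 0.77). Its mean was under 1 TPM in mutant dorsal, control dorsal and control medial cortex, so these changes lie near the floor.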
